A study of Mus musculus with 4 samples.

Results

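Cytotoxic cells keep their killing proteins in secretory granules, which are modified lysosomes, and the genes described here encode proteins that process, store, protect against and release that cargo. They are 10 genes chosen by symbol for these roles (Ctsc, Srgn, Serpinb9, Serpinb6b, Nkg7, Rab27a, Unc13d, Stx11, Stxbp2 and Lamp1), out of 23283 symbols with a value in all 4 libraries. All 10 were measured. RNA was sequenced from Th2 cells, the helper T cells that make IL-4, IL-5 and IL-13, grown from the splenic CD4 T cells of C57BL/6 mice. The series addresses what Menin does, a component of Trithorax group complexes that act on chromatin and the product of Men1.

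Each of 4 groups held 1 library: Menin knockout (KO) cells of the longer culture, wild type (WT) cells of the longer culture, KO cells after 5 days and WT cells after 5 days. The 5-day cells were kept in Th2 medium with 10 ng/ml of IL-4 and 15 ng/ml of IL-2. The longer culture is named as 3 weeks, and its described steps were 5 days in that medium, a rest of 2 days with no cytokine added, and 5 days of renewed stimulation on plate-bound anti-TCR together with anti-IL-4 and IL-2. The total of these steps is shorter than 3 weeks. The 3-week cells of both genotypes had therefore been stimulated again and had no IL-4 added after the first 5 days. The sources used here do not give how Menin was deleted or how many mice the cells came from.

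As background, granzymes are made as inactive precursors, and cathepsin C (Ctsc) removes the short peptide that keeps them inactive. Serglycin (Srgn) is the proteoglycan whose sulfated chains hold granzymes and perforin in the granule, and Serpinb9 and Serpinb6b are cytosolic inhibitors of granzymes that escape it. Release needs docking at the membrane by Rab27a, priming by Munc13-4 (Unc13d), and fusion by the SNARE protein syntaxin 11 (Stx11) with its partner Munc18-2 (Stxbp2). In humans, inherited loss of Rab27a, Munc13-4, syntaxin 11 or Munc18-2 impairs killing by lymphocytes and leads to hemophagocytic disease. Nkg7 is a granule membrane protein of killer cells needed for their degranulation, and Lamp1 coats the granule and reaches the cell surface when it fuses.

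All 4 genes that store, process or protect against granule cargo were higher in KO than in WT cells at both times. Of the 4 genes of docking and fusion none differed by 2-fold. Few genes did: upward 7.97% and downward 8.19% of those compared at 3 weeks, and 2.77% and 0.82% at 5 days. A count of 0 of 4 is near these shares, and the grouping by role was made with the values known. In a wider list of docking, priming and transport, 4 of 22 genes passed 2-fold upward at 3 weeks and 3 at 5 days. None of that list passed downward, and of 24 SNARE genes and recycling factors 0 passed in either direction. The 2 granule membrane genes differed from each other: Lamp1 was close to equal between genotypes, and Nkg7 stood furthest apart of the 10, at 13.7 times the WT level at 3 weeks and 6.24 times at 5 days. At 3 weeks Serpinb9 stood at 3.19 times and Srgn at 2.10 times the WT level. Among the docking and fusion genes, the ratio of KO to WT lay between 0.727 for Stx11 and 1.23 for Stxbp2 at 3 weeks. All of these compare 1 library with 1 other and lack a replicate check.

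The windows before the transcript starts of 5 of the genes are shown to set windows of genes that were higher in KO cells (Nkg7, Serpinb9 and Ctsc) beside windows of genes that were close to equal (Rab27a and Lamp1). Ctsc was below 2-fold at both times. Srgn and Serpinb6b were also higher in KO cells but are not printed, and every printed window holds a match, so the display favours matches. Each is the 250 bases that end just before a RefSeq transcript start, read 5′ to 3′ on the gene's strand from RefSeq with the build GRCm38.p6. Capitals mark matches to 5 motifs searched on both strands: the T-box core GGTGTGA, the Runx core TGTGGT, the E-box CACGTG that lysosomal gene regulators of the TFEB family bind, the core TTTCACTTT shared by interferon regulatory factors and Blimp-1, and the GATA motif AGATAA. The motifs were chosen after the sequences had been read.
Nkg7, chr7:43436888-43437137, plus strand: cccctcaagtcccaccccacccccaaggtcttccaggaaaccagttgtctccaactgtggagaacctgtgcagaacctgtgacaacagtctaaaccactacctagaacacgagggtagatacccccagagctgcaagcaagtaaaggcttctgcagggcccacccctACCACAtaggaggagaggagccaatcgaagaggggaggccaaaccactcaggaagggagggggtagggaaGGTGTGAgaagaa
Serpinb9, chr13:33004291-33004540, plus strand: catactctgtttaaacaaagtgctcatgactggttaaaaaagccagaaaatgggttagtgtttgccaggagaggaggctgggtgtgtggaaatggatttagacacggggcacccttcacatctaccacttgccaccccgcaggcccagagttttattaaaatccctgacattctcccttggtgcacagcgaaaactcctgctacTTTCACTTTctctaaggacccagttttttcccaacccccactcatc
Ctsc, chr7:88277835-88278084, plus strand: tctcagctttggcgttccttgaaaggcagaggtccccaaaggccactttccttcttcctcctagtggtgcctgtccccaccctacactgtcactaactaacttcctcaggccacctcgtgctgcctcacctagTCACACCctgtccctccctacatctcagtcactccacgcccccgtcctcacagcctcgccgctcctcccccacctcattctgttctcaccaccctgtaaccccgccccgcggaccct
Rab27a, chr9:73044560-73044809, plus strand: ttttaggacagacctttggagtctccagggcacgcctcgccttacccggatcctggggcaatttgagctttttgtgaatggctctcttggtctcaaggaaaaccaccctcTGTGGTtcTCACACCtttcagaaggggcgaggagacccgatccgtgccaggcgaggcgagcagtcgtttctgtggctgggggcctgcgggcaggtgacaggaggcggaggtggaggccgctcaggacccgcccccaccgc
Lamp1, chr8:13158911-13159160, plus strand: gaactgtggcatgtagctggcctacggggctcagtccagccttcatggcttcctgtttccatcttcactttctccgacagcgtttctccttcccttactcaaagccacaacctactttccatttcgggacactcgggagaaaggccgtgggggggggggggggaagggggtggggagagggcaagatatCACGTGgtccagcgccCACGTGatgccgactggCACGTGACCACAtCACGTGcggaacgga

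The Nkg7 window held a T-box match 13 to 7 bases before the start and a Runx match 83 to 78 bases before it. Ctsc held a T-box match at 117 to 111 bases. The Rab27a window held both motifs as well, the T-box match at 132 to 126 and the Runx match at 140 to 135 bases, and the Rab27a level was close to equal between genotypes. Serpinb9 held the IRF and Blimp-1 core 46 to 38 bases before its start. Lamp1 held 4 E-boxes within the last 61 bases, with a Runx match directly beside an E-box. The GENCODE M21 annotation starts Nkg7 at base 43437073 and Serpinb9 at base 33003250, ahead of the RefSeq starts used here. The Nkg7 T-box match and the Serpinb9 core therefore lie inside the genes as GENCODE places them, not upstream of them.

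Of 32851 windows of the same length in the table, 3.33% held the T-box core, 14% the Runx core, 6.02% the E-box, 0.511% the IRF and Blimp-1 core and 9.99% the GATA motif. No member window held the GATA motif in these letters. Of the 10 genes, 9 matched the table, with 11 windows, and Unc13d was not matched. Among the windows not printed, Stxbp2 held an E-box 14 to 9 bases before its start, Srgn a Runx match at 202 to 197 bases before its second start and Rab27a an E-box at 246 to 241 bases before its second start. These matches also lie inside the genes as GENCODE M21 places them. The first Srgn window, Serpinb6b and Stx11 held no match. Matches in these letters are a description of the sequence, and no binding was measured here.

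**Figure D1:**
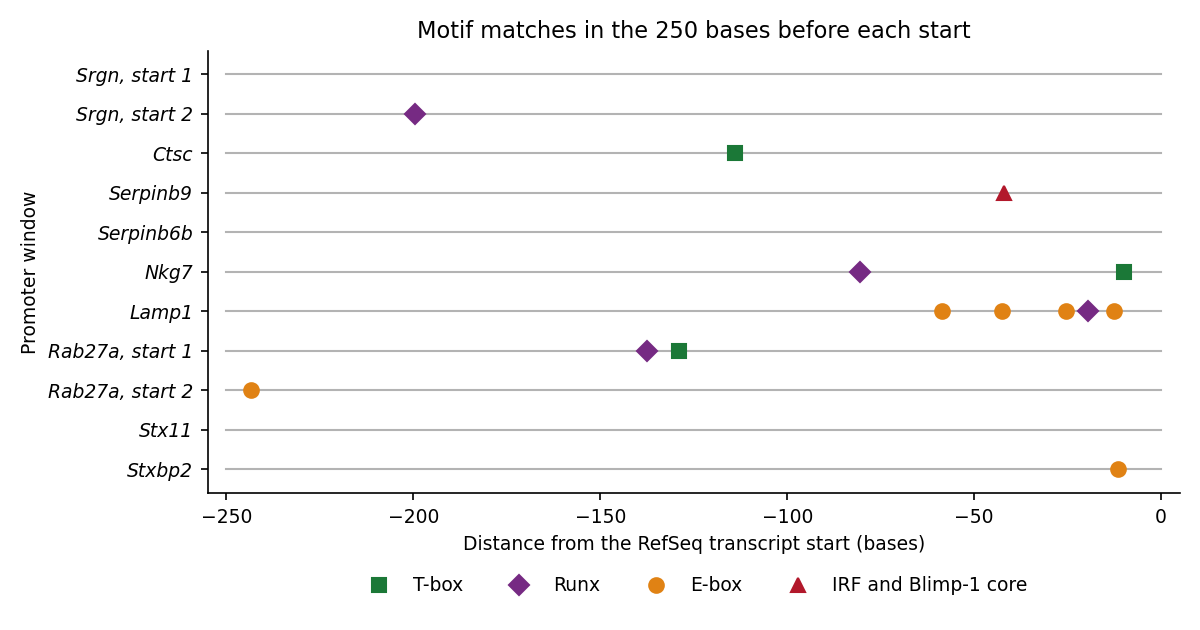
Each grey line is 1 promoter window of a member gene, with distance from the RefSeq transcript start in bases on the horizontal axis, and each symbol marks the centre of a motif match on either strand. The 4 E-boxes of Lamp1 crowd next to its start, T-box matches stand in the windows of Nkg7, Ctsc and the first Rab27a start, and 3 windows are empty.

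Men1 checked the genotypes. It stood at 5.88 and 25.4 FPKM in KO and WT cells at 3 weeks, and at 10.3 and 32.8 FPKM in KO and WT cells at 5 days. FPKM are read fragments scaled to transcript length and library depth, so levels can be compared between genes. Depth read from the steps between low values was 20.7 to 23.5 M reads per library. Intervals given with values here are exact 95% intervals on the reads the FPKM imply. They cover counting error only, not differences between cultures or mice. A gene was compared where its mean over the 4 libraries was at least 1 FPKM (10973 genes). That mean includes the KO libraries, so a gene under 1 FPKM in both WT libraries can pass through its KO level. Rab27b, Cd63, Serpinb1a, Gzmf and Gzmk of the lists below are examples. Ratios are log2((KO + 1)/(WT + 1)), which understates differences of low genes. At least 2-fold means a value of 1 or more in size on that scale, and other ratios are plain ratios of FPKM.

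At 3 weeks, 3 of the 10 genes were at least 2-fold higher in KO cells (Nkg7, Serpinb9 and Srgn) and 0 were at least 2-fold lower, where 7.97% of all compared genes passed this fold upward and 8.19% downward. At 5 days, 2 of the 10 were at least 2-fold higher (Nkg7 and Serpinb9) and 0 lower, against 2.77% and 0.82% of all compared genes. The median log2 ratio of the 10 was 0.51 at 3 weeks, beside -0.08 over all compared genes, and 0.13 at 5 days, beside -0.02. The 4 storage, processing and protection genes (Srgn, Ctsc, Serpinb9 and Serpinb6b) had a median of 0.94 at 3 weeks and 0.41 at 5 days, and all 4 lay above 0 both times. The 4 docking and fusion genes (Rab27a, Unc13d, Stx11 and Stxbp2) had medians of -0.001 and 0.06, with ranges of -0.43 to 0.29 at 3 weeks and -0.37 to 0.11 at 5 days. Of the granule membrane genes, Nkg7 had log2 ratios of 3.75 and 2.56, and Lamp1 of 0.06 and -0.12. These role groups were drawn with the values known. In these bulk libraries, more cells that make a transcript and more transcript per cell cannot be told apart.

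**Figure D2:**
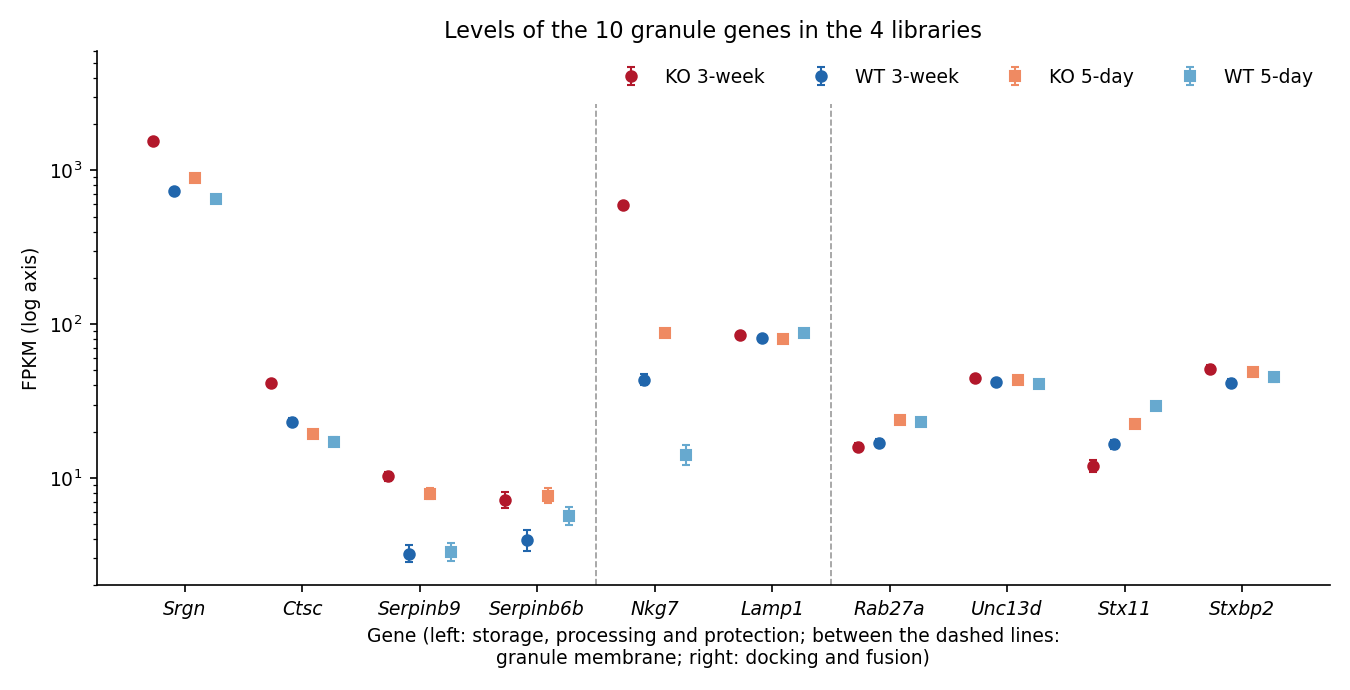
FPKM of each of the 10 genes on a log axis, 1 point per library, in the order KO 3-week, WT 3-week, KO 5-day and WT 5-day, with exact 95% counting intervals as bars. For the storage, processing and protection genes on the left and for Nkg7 the KO points lie above the WT points of the same time. For Lamp1, Rab27a, Unc13d and Stxbp2 the points of a gene lie closer together. The highest Stx11 level was 2.45 times its lowest, beside 2.40 times for Ctsc and 2.38 times for Srgn. Rab27a and Stx11 had lower 3-week levels.

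Nkg7 (chr7:43437073-43438249 on GRCm38, plus strand, in the GENCODE M21 annotation) stood at 595 FPKM in KO and 43.5 FPKM in WT cells at 3 weeks, and at 88.2 FPKM in KO and 14.1 FPKM in WT cells at 5 days. The KO libraries held the highest levels and the WT 5-day library the lowest, with no overlap of counting intervals. The ratio of KO to WT was 13.7 (12.6 to 14.9) at 3 weeks and 6.24 (5.30 to 7.35) at 5 days. From the most positive log2 ratio down, Nkg7 ranked 64th of 10973 genes at 3 weeks and 41st at 5 days. Serpinb9 came next of the members, at 510th place at 3 weeks and at 280th at 5 days.

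Nkg7 was also the one member at least 2-fold higher at 3 weeks than at 5 days in both genotypes. The 3-week level was 6.75 times the 5-day level in KO cells (6.35 to 7.19) and 3.08 times in WT cells (2.59 to 3.66). Over all compared genes, 4.35% passed the fold upward and 4.39% downward between times in KO cells, and 3.03% upward and 2.83% downward in WT cells. The log2 genotype ratio of Nkg7 was larger at 3 weeks than at 5 days by 1.19. It was the one member past 1 in size on this difference, which 4.53% of compared genes passed upward and 4.7% downward. This difference was not tested.

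Srgn (chr10:62493833-62527451, minus strand) had the highest level of the 10 genes in every library. It stood at 1551 FPKM in KO and 738 FPKM in WT cells at 3 weeks, and at 893 FPKM in KO and 652 FPKM in WT cells at 5 days. The KO 3-week library stands apart, and the other 3 lie closer together. KO cells had 2.10 times the WT level (2.05 to 2.16) at 3 weeks and 1.37 times (1.33 to 1.41) at 5 days. Of the summed FPKM of the 10 genes, Srgn made up 64.3% in KO and 73.1% in WT cells at 3 weeks, and 72.4% in KO and 71.0% in WT cells at 5 days.

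The sum over the 10 genes was 2413 FPKM in KO and 1010 FPKM in WT cells at 3 weeks, and 1234 FPKM in KO and 918 FPKM in WT cells at 5 days. As a share of all FPKM this was 0.504%, 0.217%, 0.260% and 0.196% in the KO 3-week, WT 3-week, KO 5-day and WT 5-day libraries. The 4 storage, processing and protection genes summed to 1610 and 768 FPKM in KO and WT cells at 3 weeks and to 928 and 678 FPKM at 5 days. The 4 docking and fusion genes summed to 123 and 117 FPKM in KO and WT cells at 3 weeks and to 138.2 and 138.5 FPKM at 5 days. Most of the difference in the total lies in Srgn and Nkg7.

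Ctsc (chr7:88278085-88310888, plus strand) stood at 41.4 FPKM in KO and 23.2 FPKM in WT cells at 3 weeks, and at 19.2 FPKM in KO and 17.2 FPKM in WT cells at 5 days. The level in KO 3-week cells was above the other 3 libraries, which lay close together. KO cells had 1.78 times the WT level (1.66 to 1.91) at 3 weeks and 1.12 times (1.02 to 1.23) at 5 days, below 2-fold both times. Between times, the 3-week level was 2.15 times the 5-day level in KO cells (1.99 to 2.32) and 1.35 times in WT cells (1.23 to 1.47). With Nkg7, Ctsc made up the 2 members at least 2-fold higher at 3 weeks in KO cells, and 0 were lower. With a pseudocount of 5 the log2 value of Ctsc was 0.94, just under 2-fold.

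Serpinb9 (chr13:33003250-33017957, plus strand), the mouse inhibitor of granzyme B, stood at 10.2 FPKM in KO and 3.20 FPKM in WT cells at 3 weeks, and at 7.87 FPKM in KO and 3.29 FPKM in WT cells at 5 days. Both KO libraries lay above both WT libraries, and the WT libraries differed by less than their counting intervals. KO cells had 3.19 times the WT level (2.75 to 3.70) at 3 weeks and 2.40 times (2.05 to 2.81) at 5 days. At these low levels the 2-fold count depends on the pseudocount: with 5 in place of 1, the log2 ratio was 0.89 at 3 weeks and 0.64 at 5 days, in place of 1.42 and 1.05. Serpinb6b (chr13:32965209-32979067, plus strand), described in mice as an inhibitor of granzyme A, stood at 7.18 FPKM in KO and 3.92 FPKM in WT cells at 3 weeks, and at 7.65 FPKM in KO and 5.66 FPKM in WT cells at 5 days. Its ratio of KO to WT was 1.83 (1.501 to 2.24) at 3 weeks and 1.35 (1.13 to 1.62) at 5 days. These neighbouring serpin genes had the lowest levels of the 10 in every library. Of the 50-base words of the Serpinb6b transcripts, 2.92% also occur in related serpin genes, and 0.378% of those of Serpinb9 occur in Serpinb9b. How reads were shared between them bears on both values. The same limit holds for Lamp1 (5.91%, with Grtp1), Rab27a (3.59%) and Unc13d (2.62%). The Rab27a words include some of Gm27186, which overlaps it on the same strand.

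Among the docking and fusion genes, Rab27a (chr9:73044854-73097629, plus strand), the GTPase that docks granules, stood at 15.8 FPKM in KO and 16.8 FPKM in WT cells at 3 weeks, and at 24.0 FPKM in KO and 23.1 FPKM in WT cells at 5 days. The libraries separate by time and not by genotype. The ratio of KO to WT was 0.944 (0.866 to 1.03) at 3 weeks and 1.04 (0.962 to 1.11) at 5 days. The 3-week level was 0.661 times the 5-day level in KO cells and 0.725 times in WT cells.

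Unc13d (chr11:116062095-116077961, minus strand), the priming factor, stood at 44.5 FPKM in KO and 42.1 FPKM in WT cells at 3 weeks, and at 43.1 FPKM in KO and 40.9 FPKM in WT cells at 5 days. Its log2 range over the 4 libraries, 0.116, was the smallest of the 10. KO cells had 1.06 times the WT level (1.01 to 1.11) at 3 weeks and 1.05 times (1.00 to 1.11) at 5 days.

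Stx11 (chr10:12938209-12964298, minus strand), the fusion SNARE, was the one member lower in KO cells at both times by more than its counting interval. It stood at 12.0 FPKM in KO and 16.5 FPKM in WT cells at 3 weeks, and at 22.5 FPKM in KO and 29.3 FPKM in WT cells at 5 days. KO 3-week cells had the lowest level and WT 5-day cells the highest, where Nkg7 had its highest and its lowest. The genotype ratio was 0.727 (0.649 to 0.812) at 3 weeks and 0.768 (0.707 to 0.835) at 5 days, neither a 2-fold difference. The 3-week level was 0.532 times the 5-day level in KO cells (0.478 to 0.591) and 0.563 times in WT cells (0.514 to 0.616).

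Stxbp2 (chr8:3630955-3643644, plus strand), the partner of syntaxin 11, stood at 50.8 FPKM in KO and 41.4 FPKM in WT cells at 3 weeks, and at 48.6 FPKM in KO and 45.02 FPKM in WT cells at 5 days. The ratio of KO to WT was 1.23 (1.12 to 1.34) at 3 weeks and 1.08 (0.986 to 1.18) at 5 days. In KO cells the level of Stxbp2 was therefore slightly above WT at 3 weeks while that of its partner was below. Lamp1 (chr8:13159161-13175338, plus strand), the granule membrane protein, stood at 85.0 FPKM in KO and 81.3 FPKM in WT cells at 3 weeks, and at 79.8 FPKM in KO and 87.1 FPKM in WT cells at 5 days. Its ratio of KO to WT was 1.05 (0.999 to 1.09) at 3 weeks and 0.917 (0.875 to 0.960) at 5 days. Whether strand was used in counting is not stated, and Lamp1 overlaps the antisense gene Grtp1, which stood at 0 to 0.692 FPKM over the 4 libraries. Ctsc likewise overlaps an antisense gene, Gm26522.

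**Figure D3:**
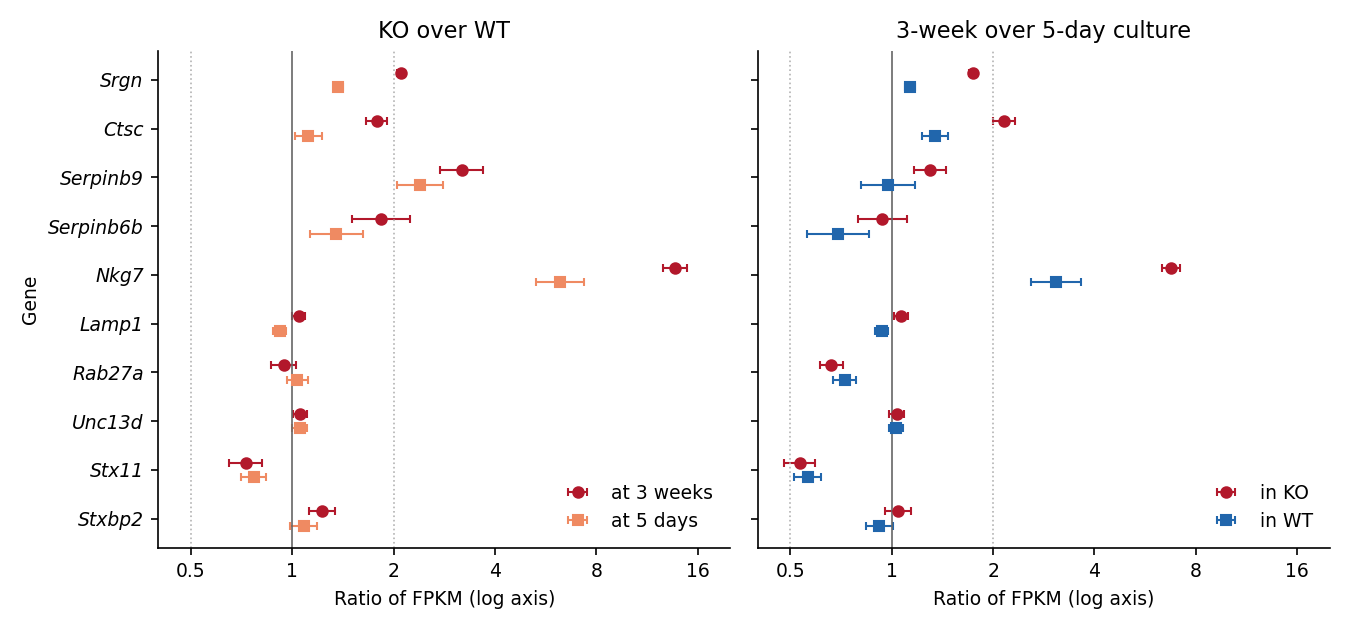
Ratios of FPKM on a log axis for each gene, KO over WT at each time on the left and 3-week over 5-day culture in each genotype on the right, with exact 95% counting intervals as bars and dotted lines at a 2-fold difference. Nkg7 lies furthest to the right in both panels, at 13.7 and 6.24 for genotype, while Rab27a, Unc13d, Stxbp2 and Lamp1 lie near 1 for genotype and Stx11 and Rab27a lie below 1 for culture time.

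The order of levels within a library differed mainly by Nkg7. It came next after Srgn in both KO libraries, after Srgn and Lamp1 in WT 3-week cells, and after all but the serpins in WT 5-day cells. Neighbours in the order with overlapping counting intervals were Unc13d with Ctsc and Stx11 with Serpinb9 in KO 3-week cells. In WT 3-week cells they were Nkg7 with Unc13d, Unc13d with Stxbp2, Rab27a with Stx11 and Serpinb6b with Serpinb9. In KO 5-day cells they were Rab27a with Stx11 and Serpinb9 with Serpinb6b, and in WT 5-day cells Stxbp2 with Unc13d and Ctsc with Nkg7. All other neighbours were separated beyond counting error.

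The genes whose profile over the 4 libraries was most like that of a member were found for members with a log2 range of at least 1, by Euclidean distance of centred log2(FPKM + 1) values among 8140 candidates. Nkg7 was nearest to Col18a1, at 0.465, then Napsa, at 0.494, and Spp1, at 0.575, for a profile that spans 5.30 on the log2 scale. Srgn was nearest to Rnf166, at 0.043, then H2-T9 and Gnptg, the last a subunit of the enzyme that makes the mannose-6-phosphate tag of lysosomal proteins. Ctsc was nearest to Slc20a1, at 0.049, and Serpinb9 to Fxyd5, at 0.136. With 4 libraries, closeness of this kind is a description only.

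Other genes of the same pathways were read from lists whose members were chosen with earlier results of these data known. For every list below, the share over all compared genes was 7.97% upward and 8.19% downward at 3 weeks. At 5 days it was 2.77% and 0.82%, so a list count of 0 at 5 days is near these shares. The medians over all compared genes were -0.08 at 3 weeks and -0.02 at 5 days. Among other genes of granule docking, priming and transport, 4 of 22 compared were at least 2-fold higher in KO cells at 3 weeks and 0 lower, with a median log2 ratio of 0.38. At 5 days 3 were higher and 0 lower, with a median of 0.25. Sytl2, an effector that ties Rab27a to the plasma membrane, stood at 144 FPKM in KO and 9.40 FPKM in WT cells at 3 weeks, and at 46.6 FPKM in KO and 17.5 FPKM in WT cells at 5 days. Thus an effector of Rab27a differed 15.3-fold at 3 weeks (14.3 to 16.5), where Rab27a itself was close to equal. Rab27b, the close relative of Rab27a, stood at 4.24 FPKM in KO and 0.374 FPKM in WT cells at 3 weeks. Sytl3, another Rab27 effector, stood at 40.4 FPKM in KO and 20.4 FPKM in WT cells at 3 weeks, and at 13.5 FPKM in KO and 5.07 FPKM in WT cells at 5 days.

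Lyst, which governs granule size and is lost in Chediak-Higashi syndrome in humans, stood at 9.60 FPKM in KO and 2.97 FPKM in WT cells at 3 weeks, and at 5.44 FPKM in KO and 4.01 FPKM in WT cells at 5 days. Rab37 stood at 66.4 FPKM in KO and 28.1 FPKM in WT cells at 3 weeks. Sytl1 was less than 2-fold higher in KO cells, at 42.7 FPKM in KO and 33.2 FPKM in WT cells at 3 weeks. Among 24 compared SNARE proteins and their recycling factors, 0 were at least 2-fold higher or lower at either time, with medians of 0.34 and 0.04. At 5 days only 2.77% of all compared genes passed upward and 0.82% downward. Vamp8, a vesicle SNARE of secretory granules, stood at 108 FPKM in KO and 87.1 FPKM in WT cells at 3 weeks. Vamp7 was listed at 0 in all 4 libraries. No transcript length was found for Vamp7, so its 0 has no counting interval and need not mean that the transcript is absent.

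Cathepsins are proteases of lysosomes and granules, and cystatins inhibit them. Of 14 compared cathepsins and cystatins, 8 were higher in KO cells at 3 weeks by at least 2-fold and 1 lower, with a median log2 ratio of 1.15, and 5 were higher and 0 lower at 5 days, with a median of 0.85. Ctsw, a cathepsin of cytotoxic lymphocytes, stood at 139 FPKM in KO and 4.84 FPKM in WT cells at 3 weeks, and at 32.3 FPKM in KO and 7.72 FPKM in WT cells at 5 days. Ctsd, the lysosomal aspartic protease, stood at 1661 FPKM in KO and 170 FPKM in WT cells at 3 weeks, and at 352 FPKM in KO and 145 FPKM in WT cells at 5 days. Cst7, which encodes cystatin F, an inhibitor of Ctsc inside the granule, stood at 636 FPKM in KO and 309 FPKM in WT cells at 3 weeks, and at 635 FPKM in KO and 333 FPKM in WT cells at 5 days. The genotype ratio of Cst7 was thus 2.05 (1.99 to 2.12) and 1.91 (1.85 to 1.97), above that of Ctsc at both times.

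Ctsl, a lysosomal cysteine protease, stood at 8.85 FPKM in KO and 1.36 FPKM in WT cells at 3 weeks, and Cstb, a cytosolic cathepsin inhibitor, at 209 FPKM in KO and 74.6 FPKM in WT cells. Ctsh, an aminopeptidase, was the one gene of this list lower at 3 weeks, at 8.49 FPKM in KO and 22.6 FPKM in WT cells. At 5 days it stood the other way, at 5.87 FPKM in KO and 1.25 FPKM in WT cells.

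In KO cells at 3 weeks, 4 of 17 compared lysosome membrane proteins and lysosome transcription factors passed 2-fold upward and 0 downward, with a median of 0.63, and 0 were higher or lower at 5 days, with a median of 0.20. Lamp2, the sister protein of Lamp1, stood at 59.7 FPKM in KO and 22.6 FPKM in WT cells at 3 weeks, and at 25.8 FPKM in KO and 15.0 FPKM in WT cells at 5 days, where Lamp1 was close to equal. Cd63, a tetraspanin of granule membranes, stood at 13.5 FPKM in KO and 0.7997 FPKM in WT cells at 3 weeks. Cd68 stood at 12.9 FPKM in KO and 3.25 FPKM in WT cells, and Atp6ap1, a proton pump accessory subunit, at 80.9 FPKM in KO and 35.0 FPKM in WT cells.

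Of 10 compared genes of AP-3 and mannose-6-phosphate sorting, which carry cargo to the granule, 3 were at least 2-fold higher and 0 lower at 3 weeks (Igf2r, Ap3m2 and Gnptg), with a median of 0.46. At 5 days 0 were higher or lower, with a median of 0.08. Igf2r, the mannose-6-phosphate receptor that sorts granzymes, stood at 18.5 FPKM in KO and 5.77 FPKM in WT cells at 3 weeks, and at 11.0 FPKM in KO and 6.50 FPKM in WT cells at 5 days.

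Srgn carries chondroitin sulfate chains, and of 11 compared enzymes that build them 4 were higher in KO cells at 3 weeks by at least 2-fold and 0 lower (Chst12, B4galt7, Chst11 and Chsy1), with a median of 0.70. At 5 days 0 were higher or lower, with a median of 0.35. Chst12, a chondroitin sulfotransferase, stood at 69.6 FPKM in KO and 23.2 FPKM in WT cells at 3 weeks, and at 45.1 FPKM in KO and 29.2 FPKM in WT cells at 5 days.

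Of 20 other clade B serpins listed, 2 passed the level filter, with medians of 0.85 at 3 weeks and 0.65 at 5 days, and 1 was at least 2-fold higher at 3 weeks. That was Serpinb1a, an inhibitor of granule proteases, at 2.55 FPKM in KO and 0.193 FPKM in WT cells. At 5 days it stood at 1.25 FPKM in KO and 0.372 FPKM in WT cells. Serpinb1a passed the filter only through its KO levels, so this count and the medians of these 2 genes carry little weight. Serpinb6a stood at 72.3 FPKM in KO and 66.5 FPKM in WT cells at 3 weeks, and at 30.7 FPKM in KO and 20.1 FPKM in WT cells at 5 days. It was far above its relative Serpinb6b in every library. Serpinb9b did not pass, at 0.869 FPKM in KO and 0.135 FPKM in WT cells at 3 weeks.

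**Figure D4:**
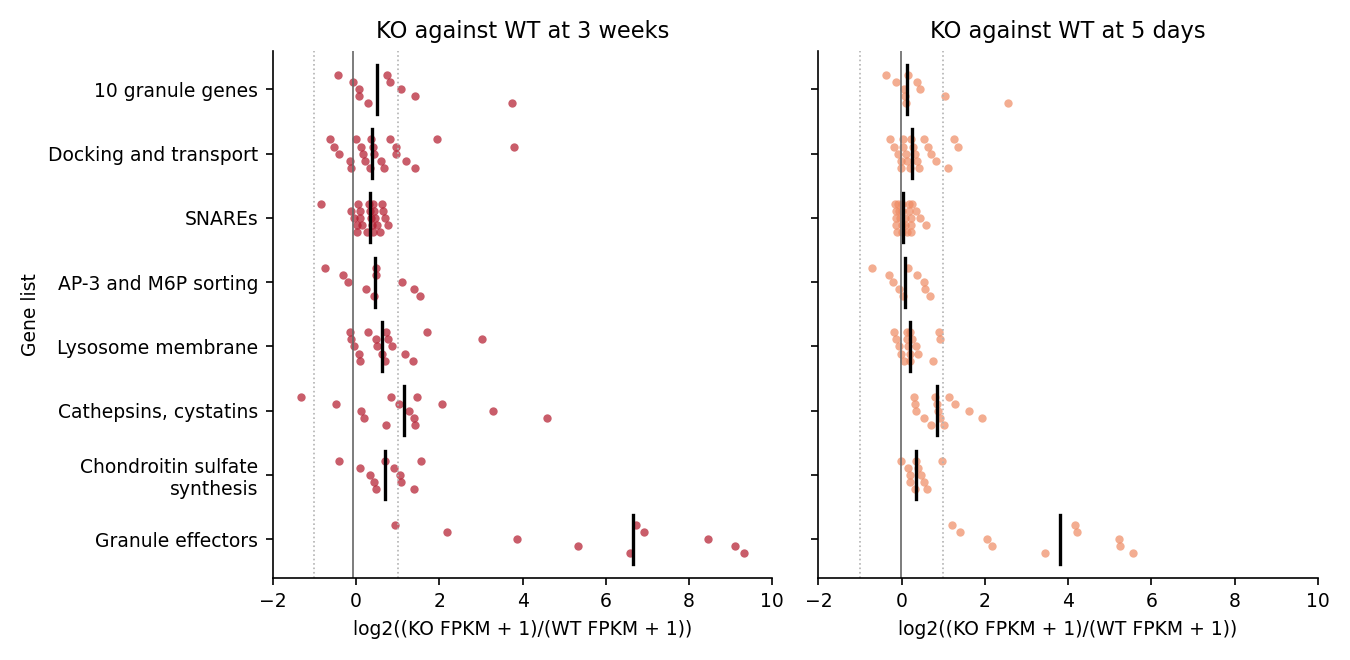
log2((KO FPKM + 1)/(WT FPKM + 1)) of every compared gene, 1 point per gene, for the 10 granule genes and 7 context lists at 3 weeks on the left and 5 days on the right, with black bars at list medians, the grey line at the median of all compared genes and dotted lines at a 2-fold difference. SNAREs lie between the dotted lines at both times, cathepsins and cystatins reach further to the right, and granule effectors lie furthest out.

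The cargo genes themselves include granzymes and perforin. Of 10 compared effector genes, 9 at 3 weeks and 10 at 5 days were at least 2-fold higher in KO cells and 0 lower, with medians of 6.66 and 3.81. Gzma, for example, stood at 13070 FPKM in KO and 322 FPKM in WT cells at 3 weeks, and Prf1, which encodes perforin, at 104 FPKM in KO and 0.0912 FPKM in WT cells. Against each FPKM of Srgn, the 9 granzymes summed to 15.1 FPKM in KO and 1.17 FPKM in WT cells at 3 weeks, and to 5.91 FPKM in KO and 1.69 FPKM in WT cells at 5 days. Serpinb9 stood at 0.130% of the Gzmb level in KO and 0.594% in WT cells at 3 weeks, and at 0.319% in KO and 0.549% in WT cells at 5 days. Per transcript of granzyme, both the storage proteoglycan and the inhibitor were thus at lower levels in KO cells, although their own levels were higher.

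Cd4 stood at 307 and 212 FPKM in KO and WT cells at 3 weeks and at 147 and 164 FPKM at 5 days, and Cd3e at 318 and 206 FPKM and at 240 and 203 FPKM. The 14 T helper and Th2 markers summed to 2378 and 1955 FPKM in KO and WT cells at 3 weeks and to 1809 and 1807 FPKM at 5 days. The sum at 3 weeks was led by Cd3g, at 1028 FPKM in KO and 389 FPKM in WT cells. Of the 14, 8 were at least 2-fold lower in KO cells at 3 weeks (Cd5, Il13, Il5, Il4, Il1rl1, Cd28, Gata3 and Ccr4) and 1 at 5 days (Cd5). Of all compared genes, 8.19% were at least 2-fold lower at 3 weeks and 0.82% at 5 days. At 5 days 7 of the 14 markers had log2 ratios above 0 and 7 below. Il13, Il5, Il4 and Il1rl1 were then higher in KO cells, at 0.835, 0.564, 0.533 and 0.419, the other way from 3 weeks. Cd5 differed most, at 3.51 FPKM in KO and 81.3 FPKM in WT cells at 3 weeks and at 40.7 FPKM in KO and 112 FPKM in WT cells at 5 days. Nkg7 is also a gene of killer lymphocytes, and 12 markers of CD8 T and NK cells summed to 20.3 and 2.52 FPKM in KO and WT cells at 3 weeks and to 14.8 and 10.1 FPKM at 5 days. Klrd1 was 11.1 FPKM of the KO 3-week sum. In KO and WT cells at 3 weeks, Cd8b1 stood at 3.12 and 2.04 FPKM, Klrk1 at 2.57 and 0.328 FPKM and Klrb1c at 1.96 and 0.0174 FPKM. Klrd1 and Klrk1 passed the level filter largely through their KO levels, so a count among the markers that passed carries little weight. Klra7 stood at 0.330 FPKM in KO cells and was listed at 0 in WT cells at 3 weeks. At 5 days Klra7 was lower in KO cells, at 1.80 FPKM against 2.61 FPKM in WT cells. Cd8a stood at 0.653 FPKM in KO cells and was listed at 0 in WT cells at 3 weeks, and at 0.540 and 0.0330 FPKM at 5 days. Of the 12, 2 were listed at 0 in KO and 7 in WT cells at 3 weeks, and 2 in each library at 5 days.

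The 11 matched myeloid markers summed to 15.8 and 0.381 FPKM in KO and WT cells at 3 weeks and to 3.65 and 0.666 FPKM at 5 days, led at 3 weeks by Itgax, at 8.63 FPKM in KO and 0.0497 FPKM in WT cells, Itgam, at 4.75 and 0.0283 FPKM, and Cd14, at 2.03 and 0.0978 FPKM. Lyz2, Csf1r, S100a9 and Elane were listed at 0 in KO 3-week cells. The 8 mast cell and basophil markers summed to 18.7 and 10.5 FPKM in KO and WT cells at 3 weeks and to 25.1 and 14.8 FPKM at 5 days, and Ms4a2, Mcpt4 and Tpsb2 were listed at 0 in all 4 libraries. Cpa3 stood at 10.2 FPKM in both genotypes at 3 weeks and at 21.6 FPKM in KO and 14.4 FPKM in WT cells at 5 days. Mcpt8 stood at 7.93 FPKM in KO and 0.266 FPKM in WT cells at 3 weeks, and at 2.63 FPKM in KO and 0.0754 FPKM in WT cells at 5 days. The 5 B cell markers summed to 0.279 and 0.155 FPKM in KO and WT cells at 3 weeks and to 2.72 and 1.62 FPKM at 5 days. The sums of these other cell types were higher in KO cells at both times, but the B cell sums at 3 weeks rest on few reads. Cd79b implied 7 reads in KO cells, and in WT cells Cd79a implied 3 and Cd79b 1. The part of these other cell types in the levels of the granule genes was not tested.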

How the data were processed

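Per the labels' protocols, TRIzol-extracted RNA went into libraries prepared with Illumina's TruSeq Stranded mRNA kit. The authors deposited FPKM, 1 file per library, and the unit was read from the naming of Cufflinks and from the values. Per the submitters' processing notes, Cufflinks 2.0.2, TopHat 1.3.2 and Bowtie 0.12.8 were used, with mm10 as the build. The sources used here do not give the read layout, the annotation, whether strand was used, or filters. Of 23284 symbols, 240 stood on several lines, which were summed, and 1 was left out because its KO 5-day cell held no number.

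With 1 library per group, a contrast within 1 time or 1 genotype cannot be tested. An additive fit of genotype and time over all 4 libraries, with a single residual degree of freedom, was left out, and p-values are not given. The comparisons were KO against WT at each time, 3 weeks against 5 days in each genotype, and the difference of the genotype log2 ratios. Depth was inferred: among genes with a single GENCODE M21 transcript, low FPKM values, at a length reduced by 200 bases, fell within 0.05 of a whole read for 59.2% to 61.6% of values below 5.5 reads, against 10% for evenly spread values. The depth kept was the one with the highest such share among many tried, whereas the 10% holds for a depth fixed beforehand. Levels have exact Poisson and ratios exact Clopper-Pearson 95% intervals from the reads so implied at the median coding transcript length. Reads are not independent molecules, so these are approximate. Only the ratio and 2-fold count steps were run on simulated counts, drawn as Poisson at the inferred depths. That run tested neither the depth nor the intervals, and it held no spread between cultures.

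The 10 genes, the context lists and the motifs were chosen with earlier results of these data known. All 10 are given in every library. Of each context list, the text names the genes at least 2-fold different in KO cells, at most the 4 largest in each direction, and a fixed set tied to the 10 by function, and for each of the 10 with a log2 range of at least 1 the 3 nearest genes with a mean of at least 5 FPKM. A few genes that the rule names are left out of the text. Stxbp3, Serpinb10 and Adgre1 from the lists were not matched. The alternatives were pseudocounts of 0.1 and 5, no level filter or one of 5 FPKM, median-of-ratios and upper-quartile scaling, and the highest line of a symbol. Calculations used Python 3.11.15, numpy 2.4.6, pandas 2.3.3 and scipy 1.17.1.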

Additional observations from a re-analysis of the deposited data

Results flagged for a closer look

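Of the granule genes, Lamp1 stood higher at 3 weeks than at 5 days in KO cells (log2 0.09) and lower in WT cells (log2 -0.10), a difference of 0.19. The directions were opposite and the difference was not tested.

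The genotype ratio pointed in opposite directions at the 2 times for 4 genes of the context lists, with 1 library per group and no test of the difference. Cell type markers were not part of this search, and some of them, such as Il13 (-2.395 at 3 weeks and 0.835 at 5 days), also pointed in opposite directions. Ctsh, an aminopeptidase cathepsin, had a log2 ratio of KO to WT of -1.31 at 3 weeks and 1.61 at 5 days, a difference of -2.93. Ctss, a cathepsin of antigen processing, had -0.49 and 0.31, a difference of -0.80. Gnptab, which encodes 2 subunits of the enzyme that makes the mannose-6-phosphate tag, had 0.44 and -0.29, a difference of 0.73, while Gnptg of the same enzyme was higher in KO cells at both times. Atp6ap2, a proton pump accessory subunit, had -0.12 and 0.21, a difference of -0.33.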

How the results depend on the processing

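No paired analysis was possible because each group held 1 library and the labels carry no replicate numbers. Of 350 log2 values of the 10 genes over 7 alternatives, 2 changed sign, both with upper-quartile scaling and both near 0: Rab27a at 3 weeks (0.03) and the Stx11 difference between times (0.02). The level filters cannot move a gene's own ratio, and with the highest line the values of the 10 genes equalled those with the sum. Only the pseudocounts and the scalings changed these values, so the 350 overstate how much was varied. Another 3 moved below 2-fold, all with a pseudocount of 5: Serpinb9 at 3 weeks (0.89) and 5 days (0.64), and Ctsc between times in KO cells (0.94). The counts at least 2-fold higher were then 1 at 5 days and 1 between times in KO cells, each in place of 2, and the 3-week median was 0.36. At 3 weeks the count fell as well, and only Nkg7 (3.63) and Srgn (1.07) stayed at least 2-fold higher. The summed level in KO cells at 3 weeks was 2.39 times that in WT cells as deposited, 2.49 times with median-of-ratios and 2.59 times with upper-quartile scaling, the last 2 added after the data had been seen.

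With a pseudocount of 5, docking and transport genes at least 2-fold higher numbered 2 at 3 weeks and 1 at 5 days, sorting genes 1, chondroitin sulfate enzymes 2 and serpins 0 at 3 weeks, and cathepsins and cystatins 2 at 5 days. With a pseudocount of 0.1 there was 1 chondroitin sulfate enzyme and 1 serpin at 5 days, and there were 2 lysosome membrane genes. With a filter of 5 FPKM 0 serpins remained past 2-fold at 3 weeks. List medians moved most with the pseudocount and the filter. With pseudocounts of 0.1 and 5, 3-week medians were 1.65 and 0.33 for serpins, 0.87 and 0.38 for chondroitin sulfate enzymes and 8.23 and 4.89 for effectors, and 5-day medians were 1.06 and 0.36 for serpins and 4.14 and 2.39 for effectors. Cathepsins and cystatins had 0.82 at 3 weeks and 0.71 at 5 days with a pseudocount of 5. Without a filter, medians were 0.85 for cathepsins and cystatins, 0.11 for serpins and 0.46 for chondroitin sulfate enzymes at 3 weeks, and 0.068 for serpins, 0.20 for chondroitin sulfate enzymes and 3.45 for effectors at 5 days. With a filter of 5 FPKM they were 0.12 for serpins, 0.98 for chondroitin sulfate enzymes and 6.83 for effectors at 3 weeks, and 4.19 for effectors at 5 days. The alternatives that moved these medians add or drop low genes or damp their ratios by construction.

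Over all compared genes, 874 passed 2-fold upward in KO cells at 3 weeks and 899 downward (49.3% upward), against 1016 and 696 (59.3%) with upper-quartile scaling and 458 and 440 with a pseudocount of 5. At 5 days 304 were higher and 90 lower, against 499 and 143 with a pseudocount of 0.1 and 122 and 56 with a pseudocount of 5. Between times with a pseudocount of 5, 254 were higher and 214 lower in KO cells, in place of 477 and 482, and 151 were higher and 125 lower in WT cells, in place of 332 and 311. One library per group limits every value here, since nothing shows the spread between cultures.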
